A study of Mus musculus with 8 samples.

Results

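The 10 genes described here carry the synthesis, recycling and use of glutathione in lens fiber cells (FC). They were taken from the expression table by gene symbol: Gclc, Gclm and Gss for synthesis, Gsr for recycling, Gpx1, Gpx3, Gpx4 and Gpx8 for the reduction of peroxides, Glrx for the repair of protein thiols, and Ggct for breakdown. Each symbol matched a single row, so that all 10 members were found among the 35275 genes listed. The cells came from C57BL/6 mice (C57BL/6J in the study's methods) that were either exposed to cigarette smoke (CS) or housed as untreated control (Ct) mice of the same age, and all groups share this strain. The CS-exposed mice entered the smoke chamber in the womb, shortly before birth, and inhaled smoke on 5 days a week, 5 hours each day, over 3.5 months, which is also about their age at dissection. Ct mice stayed in ordinary housing with no sham exposure described, so that smoke and stay in the chamber cannot be told apart. The epithelium was dissected away from the FC, and each of the 8 libraries, 4 per group, held the FC of the right eyes of 4 mice. Both groups held pools of male and of female mice, but the labels do not say which library is which.

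Glutathione is a small thiol peptide that the lens keeps at high concentration, where it protects crystallins from oxidation and so helps to keep the lens clear. It is built in consecutive steps, first by glutamate-cysteine ligase, a pair of a catalytic subunit (Gclc) and a modifier subunit (Gclm), and then by glutathione synthetase (Gss). Peroxidases spend it to reduce hydrogen peroxide and lipid peroxides, and glutathione reductase (Gsr) returns the oxidised form to the reduced one with NADPH. Several of these genes are textbook targets of the transcription factor NRF2, which is released when electrophiles such as those of tobacco smoke modify its inhibitor KEAP1.

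Values are FPKM, the fragments counted on a gene scaled to its length and to the mapped fragments of the library. By the steps of the FPKM values, the depth of the libraries ranged from 0.910 to 1.17 times that of the first Ct library, with a mean of 1.02 in Ct mice and 1.09 in CS-exposed mice. The label of the tissue was checked against 10 FC markers, all of which were detected. Mip, the main membrane protein of FC, averaged 2430 FPKM in Ct mice and 2490 FPKM in CS-exposed mice. Other cells were present at low levels and not equally in all libraries. The summed FPKM of 8 rod photoreceptor genes was 10.4 to 26.9 in Ct mice and 30.5 to 84.6 in CS-exposed mice, and that of 6 retinal pigment epithelium genes, of which 1 was at 0 in every library, was 0.922 to 1.85 and 2.70 to 25.6. The 8 lens epithelium markers summed to 506 to 584 FPKM in Ct mice and 500 to 562 FPKM in CS-exposed mice. Without Dkk3, which made up most of these sums, the range was 66.3 to 124 FPKM and 54.7 to 84.9 FPKM. In such bulk samples, fewer cells of a type and less RNA per cell cannot be told apart.

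The glutathione genes ranged from scarce to abundant RNA in the same cells. Gpx4 was the highest member at 117 ± 5.41 FPKM over all libraries (SD, n = 8), followed by Gss at 99.0 ± 3.69 FPKM and Gpx1 at 72.1 ± 6.96 FPKM. The ligase subunits lay close together, with Gclc at 26.0 ± 2.09 FPKM and Gclm at 24.3 ± 1.14 FPKM. Ggct at 4.44 ± 0.401 FPKM, Gsr at 2.56 ± 0.322 FPKM and Gpx8 at 2.54 ± 0.484 FPKM came next. Gpx3 at 1.15 ± 1.27 FPKM and Glrx at 0.0853 ± 0.0999 FPKM closed the order. These levels are scaled to the length of each gene, and the annotation release behind these lengths is not given in the sources used here. The order of genes with close levels may therefore depend on the lengths used.

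Most steps in this order were larger than the spread between libraries. For each of the 9 pairs of neighbours, the log2 ratio within libraries was tested by flipping its sign in every pattern (two-sided exact permutation test). Gpx4 was above Gss in 8 of 8 libraries, with a mean log2 ratio of 0.24, and Gss was above Gpx1 in 8 of 8 with a ratio of 0.46 (exact p = 0.00781 for both, the smallest possible, adjusted over the 9 pairs 0.0117). Gclc was above Gclm in only 6 of 8 libraries, with a mean log2 ratio of 0.09, and their ranges overlapped (exact p = 0.0391, adjusted 0.0439). Gsr was above Gpx8 in 3 of 8 libraries (exact p = 0.852), and these neighbours did not differ beyond their spread. Gpx8 was above Gpx3 in 7 of 8 libraries, with CS-exposed replicate 4 as the exception (exact p = 0.0234, adjusted 0.0301). The other 4 pairs had ranges that did not overlap. Neighbours were set by the means of the same libraries, so that these p values are no independent test of the order, which matters most for Gclc and Gclm. The 2 libraries with Gclc below Gclm were both CS-exposed.

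**Figure D1:**
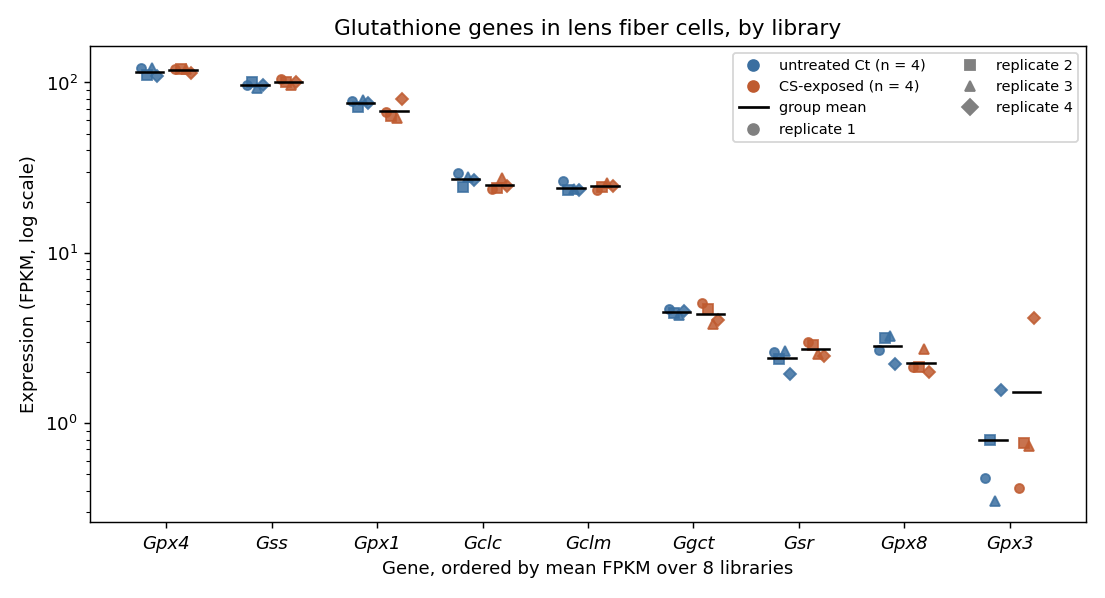
Expression of 9 glutathione genes in FPKM on a log scale, ordered by their mean, with 1 point for each library, the shape of the point for the replicate, the colour for the group and a bar for the mean of 4 libraries. Glrx is not drawn because it is listed at 0 in 3 libraries. Groups lie on top of each other for most genes, from Gpx4 at 117 FPKM down to Gsr at 2.56 FPKM, while Gpx3 spreads from 0.351 to 4.15 FPKM.

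Whether CS exposure changed these genes was tested in a limma fit on log2(FPKM + 0.1), which was run over the 9794 genes whose mean reached 1.0 FPKM in Ct or in CS-exposed mice. On this scale the change of scarce genes comes out too small. Of the 10 members, 9 were tested and Glrx was too low. Gpx3 reached the minimum through the CS-exposed mean alone. Nothing in the pathway passed the test after Benjamini-Hochberg adjustment over all genes (0 of 9 members, adjusted p values of 0.956 to 0.991), where 0.0102% of all tested genes did. At an unadjusted p value under 0.05, 1 member was lower in CS-exposed mice, namely Gpx1, and 0 were higher, beside 2.08% and 2.75% of all tested genes. With limma-voom on recovered reads the counts were the same, 0 members after adjustment and 1 before it. The median log2 fold change was 0.02 over the 9 members and 0.0043 over all tested genes, and the median absolute value was 0.12 and 0.08. For 0 of the 9 members did the CS-exposed libraries lie wholly outside the range of the Ct libraries, which 3.08% of all tested genes did. The comparison thus rests on the size of each difference and its interval. For 4 against 4 libraries, the smallest two-sided p value of an exact permutation test is 0.0286.

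**Figure D2:**
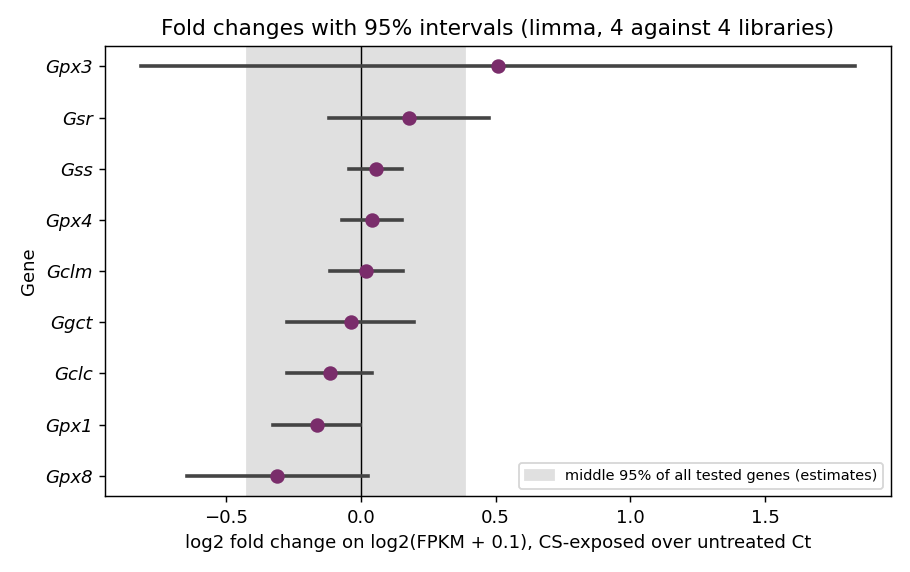
Log2 fold change of CS-exposed over untreated Ct mice for the 9 tested genes (points) with 95% intervals from limma (lines), beside the middle 95% of the estimates of all 9794 tested genes (grey, -0.42 to 0.39). The intervals of all genes but Gpx1 include 0, that of Gpx1 ends at -0.0038, and the interval of Gpx3 is the widest, from -0.82 to 1.83.

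Gclc, the catalytic subunit that sets the rate of glutathione synthesis, lies on chromosome 9 of GRCm38 from 77754535 to 77794485. Its expression was 29.3, 24.5, 27.9 and 26.6 FPKM in Ct replicates 1 to 4 and 23.7, 24.0, 27.5 and 24.6 FPKM in CS-exposed replicates 1 to 4. In 2 of the CS-exposed libraries Gclc was below every Ct library, and CS-exposed replicate 3 lay among the Ct values. The means were 27.1 ± 2.04 and 25.0 ± 1.76 FPKM (SD, n = 4 each), a 0.923-fold change with a 95% interval of 0.827 to 1.03 (log2 fold change -0.12, standard error 0.07, limma p = 0.139, exact permutation p = 0.200). Without CS-exposed replicate 3 or without Ct replicate 2 the log2 fold change was -0.16, and the unadjusted limma p value was under 0.05 (adjusted p = 0.956 and 0.946). Without Ct replicate 1 it was -0.08 (adjusted p = 0.936). Between 1647 and 2218 reads stood behind each value, so that the spread within groups, 0.10 on the log2 scale, exceeded the 0.03 that counting of reads alone would give.

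Gclm, the modifier subunit that makes the ligase more efficient, lies on chromosome 3 from 122245557 to 122270732. It was at 26.3, 23.3, 23.6 and 23.5 FPKM in Ct mice and at 23.5, 24.2, 25.7 and 24.6 FPKM in CS-exposed mice. All CS-exposed values lay within the Ct range, and Ct replicate 1 alone stood above the other Ct libraries. The means of 24.2 ± 1.44 and 24.5 ± 0.941 FPKM (SD, n = 4 each) gave a 1.01-fold change with a 95% interval of 0.924 to 1.11 (limma p = 0.738, exact permutation p = 0.600). Its sign was not stable: the log2 fold change of 0.02 turned to -0.0026 without CS-exposed replicate 3 and to -0.0016 with quantile normalization.

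Gss, which joins glycine to the product of the ligase, lies on chromosome 2 from 155563181 to 155592810. It was at 97.2, 101.1, 93.4 and 96.5 FPKM in Ct mice and at 105.3, 100.1, 97.1 and 101.2 FPKM in CS-exposed mice. Values overlapped, and 2 CS-exposed libraries were above every Ct library. The change was 1.04-fold with a 95% interval of 0.971 to 1.11 (log2 fold change 0.06, standard error 0.04, limma p = 0.234, exact permutation p = 0.200). When 1 library was left out the log2 fold change was 0.036 to 0.076, lowest without CS-exposed replicate 1. Gss varied least of all members, with a coefficient of variation of 3.73% over the 8 libraries, and had 5686 to 7530 reads per library. Of its exon bases, 6.68% are shared with exons of Acss2 on the opposite strand, which was at 0.730 to 1.15 FPKM, and reads there could belong to either gene.

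Gsr, the NADPH-dependent reductase that recycles oxidised glutathione, was expressed far below the genes that make glutathione. On chromosome 8 from 33652523 to 33698163, it was at 2.62, 2.39, 2.65 and 1.94 FPKM in Ct mice and at 2.996, 2.88, 2.53 and 2.47 FPKM in CS-exposed mice. The 2 highest values were CS-exposed and the lowest was Ct replicate 4, with overlap between. The change was 1.13-fold, and the 95% interval of 0.923 to 1.39 was wide (log2 fold change 0.18, standard error 0.14, limma p = 0.209, exact permutation p = 0.200). Reads numbered 94 to 178 per library, and counting alone would give a spread of 0.12 of the observed 0.17 on the log2 scale. Without Ct replicate 4 the log2 fold change was 0.09.

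Gpx1, the cytosolic peroxidase for hydrogen peroxide, showed the smallest limma p value among the 9 tested members, though not the smallest exact p value, which was that of Gpx8. The gene is on chromosome 9 from 108338903 to 108340343. Expression was 78.1, 71.7, 78.6 and 76.0 FPKM in Ct mice and 67.0, 64.0, 62.2 and 79.5 FPKM in CS-exposed mice. In 3 CS-exposed libraries Gpx1 was below every Ct library, and in CS-exposed replicate 4 it was above all of them. The means were 76.1 ± 3.16 and 68.2 ± 7.82 FPKM (SD, n = 4 each), a 0.893-fold change with a 95% interval of 0.799 to 0.997 (log2 fold change -0.16, standard error 0.07, limma p = 0.0456, adjusted p = 0.956, exact permutation p = 0.143). The difference therefore did not pass the adjusted test. Without CS-exposed replicate 4 the log2 fold change was -0.24 (limma adjusted p = 0.648, the lowest over the alternatives). Leaving out this library, the only CS-exposed one not below every Ct library, necessarily left groups that did not overlap. Without 1 of the other 7 libraries the log2 fold change ranged from -0.19 to -0.12, and the unadjusted p value stayed under 0.05 only without Ct replicate 2. Among the 18 alternative fits, the p value was under 0.05 in 10. CS-exposed replicate 4 held the highest sums of blood genes (22.8 FPKM) and of genes of pigmented cells (6.52 FPKM) of all libraries. It also held the lowest sum of rod genes of its group (30.5 FPKM). The part of these cells in the Gpx1 values was not tested.

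Gpx4, the peroxidase that reduces lipid peroxides in membranes and holds ferroptosis in check, had the highest FPKM of the members. On chromosome 10 from 80047166 to 80056439, it was at 121, 110.2, 122 and 108 FPKM in Ct mice and at 120.5, 121, 119 and 114 FPKM in CS-exposed mice. All CS-exposed values fell within the Ct range. The change was 1.03-fold with a 95% interval of 0.952 to 1.11 (limma p = 0.437, exact permutation p = 0.429). The log2 fold change of 0.04 was 0.01 without Ct replicate 4, 0.02 without Ct replicate 2 and 0.07 without Ct replicate 3. A processed pseudogene of Gpx4, Gpx4-ps2, is annotated on the same chromosome, and reads that match both copies may be lost or split.

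Gpx8, a peroxidase of the endoplasmic reticulum membrane, had the second smallest limma p value and the smallest exact p value among the 9 tested members. On chromosome 13 from 113042753 to 113046410, it was at 2.67, 3.14, 3.26 and 2.23 FPKM in Ct mice and at 2.15, 2.13, 2.73 and 2.00 FPKM in CS-exposed mice. In 3 CS-exposed libraries the value was below every Ct library, and replicate 3 of the CS-exposed mice was the exception. The means were 2.83 ± 0.471 and 2.25 ± 0.327 FPKM (SD, n = 4 each), a 0.807-fold change with a 95% interval of 0.640 to 1.02 (log2 fold change -0.31, standard error 0.15, limma p = 0.0670, exact permutation p = 0.0857). Only 41 to 77 reads stood behind each value, and counting alone would give 0.20 of the spread of 0.22 within groups. The libraries with the highest Gpx8 of each group, Ct replicate 3 and CS-exposed replicate 3, were also those with the highest sum of lens epithelium markers (584 and 562 FPKM). Dkk3 alone made up 78.7% and 84.9% of these sums, and without it they were 124 FPKM against 66.3 to 82.6 FPKM in the other Ct libraries and 84.9 FPKM against 54.7 to 77.2 FPKM in the other CS-exposed libraries. Replicate 3 held the highest value of its group for 7 of the 8 markers in Ct mice, with Tfap2a as the exception, and for 5 of 8 in CS-exposed mice, where Tfap2a, Aqp1 and Pdgfra were higher in another library. Cdh1, the E-cadherin of the epithelium, was at 6.22 and 4.17 FPKM in these libraries and at 2.10 to 3.70 FPKM in the other 6. The sums of rod genes (26.9 and 84.6 FPKM) and of retinal pigment epithelium genes (1.85 and 25.6 FPKM) were also the highest of their group in these libraries. The part of any of these cells in the Gpx8 values was not tested. Leaving out CS-exposed replicate 3, the only CS-exposed library within the Ct range, necessarily left groups that did not overlap. The log2 fold change was then -0.40, and without Ct replicate 4 it was -0.41. In both cases the unadjusted limma p value was under 0.05 (adjusted p = 0.956 and 0.944). Without Ct replicate 3 the log2 fold change was -0.24, without Ct replicate 2 it was -0.26, and the unadjusted p value was above 0.05 in both and with limma-voom. With the replicate number as a block and with median centring, the limma p value was 0.042 and 0.0453 (adjusted p = 0.903 and 0.964).

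**Figure D3:**
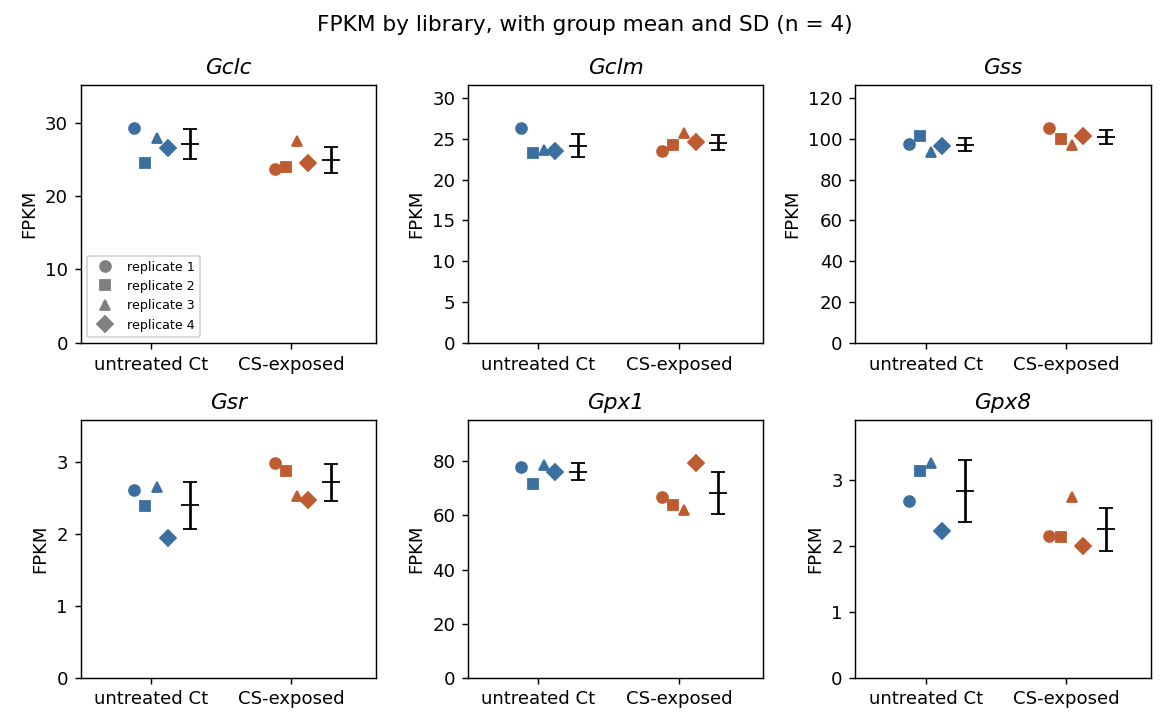
FPKM of Gclc, Gclm, Gss, Gsr, Gpx1 and Gpx8 in each library, on axes that start at 0, with the shape of the point for the replicate and the mean and SD of 4 libraries beside each group. Gpx1 of CS-exposed replicate 4 sits at 79.5 FPKM above all Ct libraries, while the other 3 CS-exposed libraries sit between 62.2 and 67.0 FPKM below them.

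The make-up of the peroxidase RNA was compared as shares, which do not depend on the scaling of a library. Gpx4 and Gpx1 together made up nearly all of the summed FPKM of the 4 peroxidases. Gpx1 held 38.6%, 38.6%, 38.4% and 40.4% in Ct mice and 35.3%, 34.1%, 33.6% and 39.8% in CS-exposed mice. The share was thus lower than in every Ct library in 3 CS-exposed libraries and within the Ct range in replicate 4. The mean was 35.7 ± 2.85% in CS-exposed mice and 39.0 ± 0.921% in Ct mice (SD, n = 4 each), a difference of -3.30 percentage points (two-sided exact permutation test, p = 0.114). Gpx4 took 59.1 ± 1.04% and 62.3 ± 3.54% (exact permutation p = 0.143). Without CS-exposed replicate 4, an alternative chosen after its values were seen, Gpx1 held 34.3 ± 0.849% and Gpx4 64.1 ± 0.611% in the other 3 CS-exposed libraries (exact permutation p = 0.0571 for both, the smallest that 3 against 4 libraries can give). Summed over the 4 genes, peroxidase RNA was at 195 ± 9.53 FPKM in Ct mice and 191 ± 6.34 FPKM in CS-exposed mice (exact permutation p = 0.371).

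**Figure D4:**
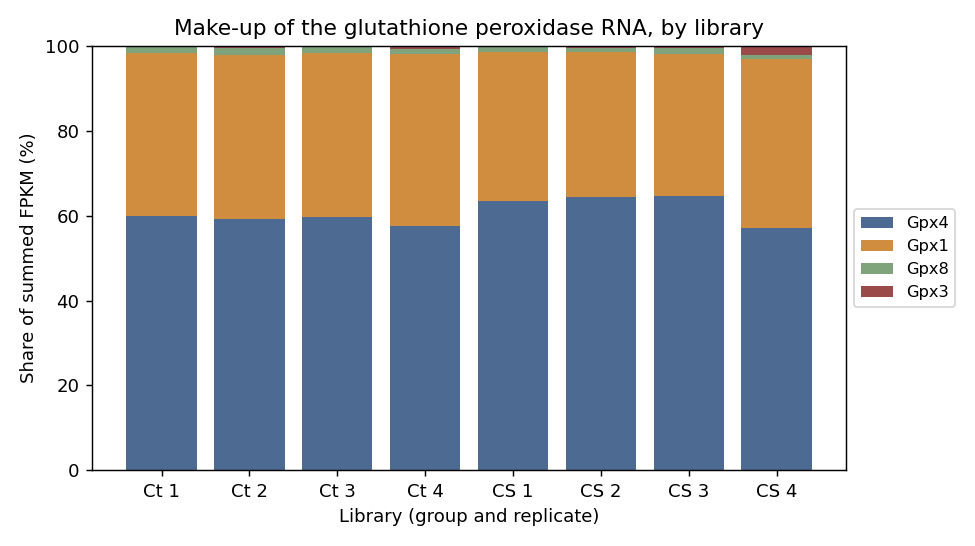
Share of Gpx4, Gpx1, Gpx8 and Gpx3 in their summed FPKM for each of the 8 libraries, as stacked bars in percent. Gpx4 fills 63.4% to 64.5% in CS-exposed replicates 1 to 3 and 57.1% in replicate 4, against 57.6% to 59.8% in Ct mice, and Gpx3 is visible mainly in CS-exposed replicate 4 at 2.08%.

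Gpx3, the secreted peroxidase of plasma and extracellular fluid, varied more than any other tested member, with a coefficient of variation of 110%. On chromosome 11 from 54902453 to 54910377, it was at 0.473, 0.794, 0.351 and 1.56 FPKM in Ct mice and at 0.416, 0.761, 0.734 and 4.15 FPKM in CS-exposed mice. The highest library of each group was replicate 4, and the other CS-exposed libraries lay within the Ct range. The means were 0.795 ± 0.544 and 1.51 ± 1.76 FPKM (SD, n = 4 each), a 1.42-fold change with a 95% interval of 0.568 to 3.56 (limma p = 0.417, exact permutation p = 0.629). CS-exposed replicate 4 alone held 143 reads, against 13 to 45 in the other 7 libraries. Summed reads per depth were 2.00 times as high in CS-exposed mice with that library (95% interval 1.57 to 2.57, which covers counting error only) and 0.843 times without it (0.607 to 1.16). The direction of the summed reads thus rested on 1 library, and without it the gene fell under the minimum FPKM and was not tested. The log2 fold change of 0.51 was 0.24 without Ct replicate 3, 0.87 without Ct replicate 4 and 0.88 without CS-exposed replicate 1.

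Of the lists of other ocular cells, that of pigmented cells of the iris and ciliary body was highest in the same library as Gpx3 in both groups. Its 5 genes were all detected, but none reached the minimum mean FPKM for the test. They summed to 2.61 FPKM in Ct replicate 4 and 6.52 FPKM in CS-exposed replicate 4, and to 0.348 to 1.30 FPKM in the other 6 libraries. Replicate 4 held the highest value of its group for 4 of the 5 genes in Ct mice, with Pmel as the exception, and for 5 of 5 in CS-exposed mice. Pmel was at 0.415 FPKM in Ct replicate 4 and at 0.618 FPKM in Ct replicate 2. Dct, an enzyme of melanin synthesis, was at 1.47 and 3.52 FPKM in these 2 libraries and at 0 to 0.650 FPKM in the others. Mlana, a melanosome protein, was at 0.532 and 0.965 FPKM there and listed at 0 in the other 6. The 5 genes of blood, all detected, summed to 22.8 FPKM in CS-exposed replicate 4 and to 0.265 to 4.23 FPKM elsewhere, and to only 0.284 FPKM in Ct replicate 4. The sum of rod genes was the lowest of each group in replicate 4 (10.4 and 30.5 FPKM), and that of retinal pigment epithelium genes was highest in replicate 3 (1.85 and 25.6 FPKM). The part of these cells in the Gpx3 values was not tested. Among all tested genes, those whose log2 values were most like Gpx3 over the 8 libraries were 1110059G10Rik, Aggf1 and Tmem14c. Their Pearson correlations, which are the highest of all tested genes and carry no test, were 0.936, 0.935 and 0.934, and their Spearman correlations 0.714, 0.524 and 0.738. Without the 2 libraries farthest from the Gpx3 median, both of them replicate 4, the Pearson correlations were 0.908, 0.309 and 0.264, so that for Aggf1 and Tmem14c the likeness rested on those libraries.

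**Figure D5:**
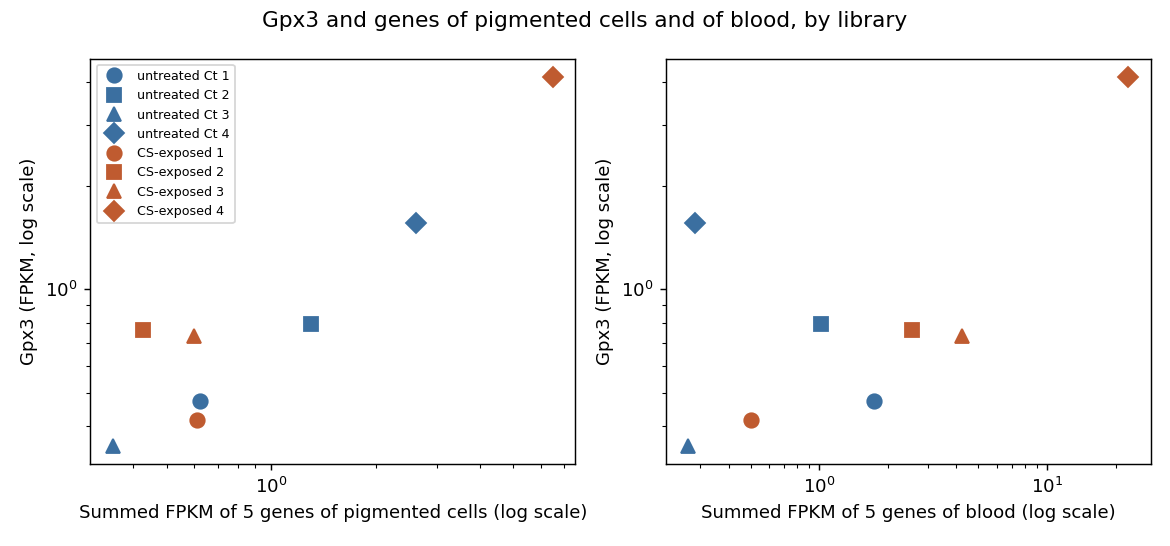
Gpx3 in FPKM against the summed FPKM of 5 genes of pigmented cells (left) and 5 genes of blood (right), each on log scales, with 1 point for each library, the colour for the group and the shape for the replicate. Replicate 4 of both groups stands at the top of the left panel, at 1.56 and 4.15 FPKM of Gpx3, while only CS-exposed replicate 4 is also far to the right for blood.

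Ggct, a cyclotransferase that breaks down gamma-glutamyl peptides, lies on chromosome 6 from 54982580 to 54992950. It was at 4.65, 4.44, 4.31 and 4.55 FPKM in Ct mice and at 5.09, 4.68, 3.80 and 4.03 FPKM in CS-exposed mice. The Ct values lay close together and the CS-exposed values on both sides of them, 2 above and 2 below every Ct library. The change was 0.975-fold with a 95% interval of 0.828 to 1.15 (limma p = 0.739, exact permutation p = 0.8286). Its direction turned without CS-exposed replicate 3 or 4. Reads numbered 309 to 428 per library.

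Glrx, the cytosolic glutaredoxin that uses glutathione to reduce mixed disulfides, was barely detected. On chromosome 13 from 75839868 to 75850154, it had 1, 0, 2 and 0 reads in Ct mice and 0, 5, 4 and 8 reads in CS-exposed mice. These reads correspond to 0.0374, 0, 0.0640 and 0 FPKM and to 0, 0.161, 0.145 and 0.275 FPKM. A count of 0 allows up to 3 reads, which is 0.106 to 0.123 FPKM in the 3 libraries concerned. In 3 CS-exposed libraries the value was above every Ct library, and CS-exposed replicate 1 had no read. Reads per depth were 5.31 times as high in CS-exposed mice over the group totals of 3 and 17 reads, with a counting interval of 1.54 to 28.3, and 3.75 times without CS-exposed replicate 4 (0.937 to 21.6). In the fit without a minimum FPKM, Glrx had a limma p of 0.0593 and an adjusted p of 0.906 (exact permutation p = 0.143).

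Since NRF2 acts on many genes of this pathway through the antioxidant response element, the promoter windows of the members were searched on both strands for its core, TGACNNNGC. RefSeq windows on GRCm38.p6, from 250 bases before to 50 bases after a start site, were found for 8 of the 10 members, and not for Gclc and Gsr. The core was found for 2 of these 8, Gclm and Ggct, and in 14.0% of the 27025 genes with a window (12.4% of 32851 windows of 300 bases). The bases before the start sites of these genes, 250 for Gclm and 167 for Ggct, are shown to place the matches, with the core in capitals, 5′ to 3′ on the strand of the gene. The Gclm stretch is chr3:122245307-122245556 on the plus strand and the Ggct stretch is chr6:54992951-54993117 on the minus strand. The Ggct stretch leaves off 83 bases before the RefSeq start, because GENCODE M21 starts the gene that much earlier.
Gclm promoter: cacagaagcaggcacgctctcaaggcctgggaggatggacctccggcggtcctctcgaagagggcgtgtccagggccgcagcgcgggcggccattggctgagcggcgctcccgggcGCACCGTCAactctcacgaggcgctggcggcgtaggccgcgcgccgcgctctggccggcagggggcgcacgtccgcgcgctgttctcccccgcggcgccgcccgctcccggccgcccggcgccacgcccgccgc
Ggct promoter: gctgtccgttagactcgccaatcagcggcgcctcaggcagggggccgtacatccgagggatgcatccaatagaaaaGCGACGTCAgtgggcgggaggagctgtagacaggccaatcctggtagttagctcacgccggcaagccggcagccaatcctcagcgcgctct
Both runs in capitals are the core as read on the opposite strand, with their first base at -134 from the start site of Gclm and, for Ggct, at -174 from the RefSeq start or -91 from the GENCODE start. A further match in Ggct, on its own strand, has its first base at 6 from the RefSeq start. A match describes letters and is no measurement of binding. As given above, Gclm changed 1.01-fold and Ggct 0.975-fold with intervals that include 1.

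The rest of the pathway was followed in a list of 37 other genes for the turnover of glutathione, other peroxidases and glutaredoxins, the supply of cysteine and NADPH, transport, and the insertion of selenocysteine, the amino acid at the active site of Gpx1, Gpx3 and Gpx4. Of these, 23 were tested, and 0 had a limma p value under 0.05 in either direction (the smallest was 0.0602), beside 4.83% of all tested genes. Their median log2 fold change was -0.0043, with 12 genes on the lower and 11 on the higher side. Gpx2, Gpx5 and Dpep1 were listed at 0 in every library, and Gpx6 and Gpx7 were at most 0.196 FPKM.

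Glutaredoxin RNA in these cells was that of other family members. Glrx3, which handles iron-sulfur clusters in the cytosol, averaged 92.1 FPKM over the libraries, Glrx5 of the mitochondria 27.3 FPKM and Glrx2, also mitochondrial, 6.27 FPKM. Their log2 fold changes were 0.04, -0.0043 and 0.01 (limma adjusted p = 0.985, 0.995 and 0.995). For turnover, Lap3, a leucine aminopeptidase, was at 36.9 FPKM, Oplah, the 5-oxoprolinase, at 4.25 FPKM and Chac2, a glutathione-degrading cyclotransferase, at 2.00 FPKM. Of these, Oplah had the smallest p value, with 4.19, 5.23, 4.70 and 4.42 FPKM in Ct mice and 3.76, 3.34, 4.95 and 3.39 FPKM in CS-exposed mice (log2 fold change -0.27, standard error 0.13, limma adjusted p = 0.956). In 3 CS-exposed libraries it was below every Ct library, with replicate 3 again the exception.

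Among genes of supply, Me1, which makes NADPH, had a log2 fold change of 0.12, Slc3a2, the shared heavy chain of amino acid transporters, of -0.15 and Idh1, another source of NADPH, of -0.02 (limma adjusted p = 0.956, 0.985 and 0.995). Slc3a2 was at 21.0 and 16.6 FPKM in replicate 3 of Ct and CS-exposed mice and at 10.7 to 12.3 FPKM in the other 6 libraries. Its partner in cystine uptake, Slc7a11, named after its values were seen, was highest in the same libraries at 2.83 and 2.04 FPKM, with 0.845 to 1.61 FPKM in the others. These are the libraries with the highest sum of lens epithelium markers, with the exceptions named above. They also held the highest sums of rod and of retinal pigment epithelium genes of their group, and the part of any of these cells was not tested. The mitochondrial carriers Slc25a39, which brings glutathione into mitochondria, and Slc25a11 had log2 fold changes of -0.04 and 0.08, and the exporter Abcc1 of 0.09 (limma adjusted p = 0.985, 0.956 and 0.985).

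The machinery that places selenocysteine was expressed at modest levels, with Eefsec, the dedicated elongation factor, at 6.98 FPKM, Pstk, a kinase of the selenocysteine transfer RNA, at 5.35 FPKM and Sephs1 at 4.65 FPKM. Their log2 fold changes were -0.04, 0.08 and -0.06 (limma adjusted p = 0.993, 0.985 and 0.986). Sepsecs, the synthase of the last step, was named after its values were seen. It was at 2.38, 2.46, 2.68 and 2.15 FPKM in Ct mice and at 3.03, 2.71, 2.76 and 2.97 FPKM in CS-exposed mice, so that its groups did not overlap, as for 1 of the 23 tested genes of these lists beside 3.08% of all tested genes. On the log2 scale the CS-exposed mean was higher by 0.24 with a standard error of 0.12 (limma adjusted p = 0.956).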

How the data were processed

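RNA of lens FC was measured in 8 libraries, 4 of CS-exposed and 4 of untreated Ct mice, as given by the labels. Per the labels, the authors made libraries with the NEB Next Ultra RNA kit, aligned paired reads of 150 bases to GRCm38 with STAR 2.5 and counted them on genes with HTSeq 0.6.1. The annotation release is not given in the sources used here. They deposited FPKM for each library, the mean FPKM of each group, and, from their own comparison with DESeq2, a log2 fold change and p-values, which were not used. No sequencing batch is labelled.

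Groups were compared with limma 3.58.1 in R 4.3.3 (eBayes with a trend over expression) after log2 transformation of FPKM + 0.1, over the 9794 genes whose mean reached 1.0 FPKM in Ct or in CS-exposed mice. Permutation tests used scipy 1.17.1 in Python 3.11.15. Libraries are separate pools of mice. Whole reads (tolerance 0.02 reads) were recovered from the steps of FPKM for 99.8% of tested genes, with a median of 313 reads per value. Without molecular identifiers, intervals on reads and limits at 0 cover counting error only. Data simulated for the comparison of groups over 9622 genes held 98 genes changed by 1 and 98 by 0.5 on the log2 scale. After Benjamini-Hochberg adjustment, 82.7% and 46.9% of them passed. In the measured data 1 of 9794 tested genes passed. The adjusted cutoff is stricter when fewer genes change, so the simulated shares do not give the chance of detecting a single changed member. Among the 9 tested members, only the log2 fold change of Gpx3 (0.51) reached 0.5 in size, and detection of smaller changes was not examined.

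Members and lists were chosen with earlier results of these data known. Named are all members, the 3 highest genes of each pathway list, genes with p under 0.05 in those lists and the 3 genes most like the member with the largest SD of log2(FPKM + 0.1). Where a marker symbol had several rows (Lim2), the highest was used. Gene coordinates are from GENCODE M21 (GRCm38), and promoters from RefSeq (GRCm38.p6). Alternatives were other pseudocounts (1 and 0.01), minima (none and 5 FPKM), median centring, quantile normalization, eBayes without a trend or robust, the replicate number as a block, limma-voom on recovered reads, and leaving out each library.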

Additional observations from a re-analysis of the deposited data

Results flagged for a closer look

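In 20 groups of 4 libraries, formed by the 10 genes and both conditions, the highest or lowest library was examined for a gap to the next one above Dixon's 95% critical value. Such a gap was found in 2 groups, where chance gives 1. Gpx3 was at 4.15 FPKM in CS-exposed replicate 4 and at 0.416 to 0.761 FPKM in the other 3 CS-exposed libraries, a gap of 0.908 of the range. Gclm was at 26.3 FPKM in Ct replicate 1 and at 23.3 to 23.6 FPKM in the other 3 Ct libraries, a gap of 0.907 of the range.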

How the results depend on the processing

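The number of members with an adjusted p value under 0.05 was 0 in all 18 alternative fits. Of 157 values of the members under these alternatives, 153 kept their direction and 4 did not. Gclm turned to -0.0016 with quantile normalization and to -0.0026 without CS-exposed replicate 3, where its range over fits that left out 1 library was -0.0026 to 0.063. Ggct turned to 0.029 and 0.0016 without CS-exposed replicates 3 and 4, with a range of -0.11 to 0.029. The share of Gpx3 among the peroxidases went from 0.359 to -0.0752 percentage points without CS-exposed replicate 4. The number of members lower at an unadjusted p value under 0.05 was 1 as reported, 0 with eBayes without a trend, 2 with the replicate block (Gpx1 and Gpx8) and 0 to 2 when 1 library was left out. It was Gpx8 in place of Gpx1 with median centring. Members whose groups did not overlap numbered 0 to 1 when 1 library was left out. These were Gpx1 without CS-exposed replicate 4 and Gpx8 without CS-exposed replicate 3. In each case the library left out was the only CS-exposed one not below every Ct library. The share over all tested genes was not counted with 1 library left out. Over all tested genes, the reported 204 lower and 269 higher genes became 405 and 457 without a minimum FPKM and 78 and 148 with a minimum of 5 FPKM, and ranged over 159 to 286 and 220 to 313 when 1 library was left out. After adjustment 1 gene passed as reported, 0 without a minimum FPKM and with eBayes without a trend, 5 with the replicate block, 2 with limma-voom, and 0 to 1 when 1 library was left out. The cause was not tested. Same-numbered libraries of the groups had correlations of their deviations across genes of 0.012 to 0.161. The mean was 0.0904, against -0.0301 for libraries of different number, and 6 of 8 libraries were closest to their own number. These correlations were low but mostly above those of other pairs, and the pairing by number was kept as an alternative. At 41 to 77 reads for Gpx8 and at most 8 for Glrx, counting error limits what change could be detected.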

Other observations

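The balance of the ligase subunits was looked at within libraries after their values had been seen. The ratio of Gclc to Gclm FPKM was 1.11, 1.05, 1.18 and 1.13 in Ct replicates 1 to 4 and 1.01, 0.991, 1.07 and 0.999 in CS-exposed replicates 1 to 4. In 3 CS-exposed libraries the ratio was below every Ct library, and CS-exposed replicate 3 lay above Ct replicate 2 only. The means were 1.12 ± 0.0542 and 1.02 ± 0.0358 (SD, n = 4 each), a difference of -0.102 (two-sided exact permutation test, p = 0.0571). The difference was -0.125 to -0.0812 when each library was left out in turn (exact permutation p of 0.0571 to 0.114, where 0.0571 is the smallest that 7 libraries can give, so that these p values could not pass 0.05). The ratio does not depend on the scaling of a library.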
